A study of Mus musculus with 8 samples.

Results

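The translation initiation and elongation factors of the mouse genital tubercle were compared between male and female embryos. The genes were taken by name from the platform annotation: every gene whose symbol begins with Eif followed by 1 to 6, or with Eef followed by 1 or 2, together with Gcn1, whose product activates an eIF2 kinase. The sex-linked pair Eif2s3x and Eif2s3y was left out, and the rule uses names alone. The rule gave 57 of the 18194 genes named on the arrays and 155 of the 34945 probe sets annotated to a single gene. A probe set is a group of short probes that together read a stretch of a transcript, and several genes have more than 1.

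The study compared the genital tubercle, from which penis or clitoris develops, between the sexes at embryonic day 14. There were 4 male and 4 female FVB/N samples, staged as Theiler stage 22, with 1 Affymetrix MOE430 array per sample. The labels name no transgene, deletion or treatment for either sex. Each sample came from microdissected, unpooled tissue, and its RNA was amplified in 2 rounds before hybridization. Nothing in the labels says which embryos were littermates or which arrays were processed together, so the p-values reflect only how much these samples vary, part of which may be technical. The tissue is bulk, and fewer cells of a type cannot be told apart from less RNA per cell.

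Translation initiation brings the initiator tRNA and the small ribosomal subunit to the start codon of an mRNA. eIF2 carries the initiator tRNA as a GTP complex, eIF2B recharges eIF2 with GTP, and 4 kinases that phosphorylate eIF2 block this recharging under stress. eIF4 factors bind the 5′ cap and unwind the leader, eIF3 is the large scaffold on the small subunit, and eIF1A, eIF5 and eIF5B act on start codon choice and subunit joining. During elongation eEF1A delivers aminoacyl-tRNA, eEF1B recharges eEF1A, and eEF2 moves the ribosome along. These factors serve every growing tissue, and several have a second gene with its own tissue pattern, such as Eef1a2 in mature muscle and neurons beside Eef1a1.

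The deposited intensities were linear and had a 2%-trimmed mean of 1500.01 on each array, but their median was lower on female arrays (184.4 to 206.6) than on male arrays (211.7 to 249.4). The 18S ribosomal RNA control, a measure of carried-over ribosomal RNA, read 8332 to 18926 on the female arrays and 21050 to 33634 on the male arrays, highest in male replicates 1 and 3. The 5′ to 3′ ratio of the actin control, a sign of RNA integrity, lay between 0.117 and 0.155 in females and between 0.111 and 0.189 in males, again highest in male replicates 1 and 3. Arrays correlated at 0.967 to 0.976 within a sex and at 0.939 to 0.965 between the sexes. The Y-linked Eif2s3y, Uty and Kdm5d were low on every female array and high on every male array, and Xist, high in every female, was also high in male replicate 3 (16036, against 230 to 620 in the other males). Of the tubercle markers Hoxd13, Isl1, Shh and Tbx4 were bright, whereas Fgf8 and Hoxa13 lay below the filter on low values. Several marker lists moved with sex: 7 of 9 tested skeletal muscle markers were higher in males and 0 in females, with a summed intensity of 6684 to 16534 on the female arrays and 19271 to 30080 on the male arrays. Summed neuron markers read 8649 to 10114 in females and 11421 to 15653 in males (4 of 6 called higher in males, 1 in females), and summed tubercle markers 93199 to 108218 in females and 79869 to 83600 in males (0 of 4 called higher in males, 3 in females). Summed erythroid markers read 39680 to 42384 in females and 43774 to 53807 in males (1 of 4 called higher in males, 2 of 4 in females). Endothelial markers read 4826 to 5436 in females and 5284 to 7525 in males (2 of 3 called higher in males, 1 of 3 in females). Macrophage markers read 2583 to 3173 in females and 2957 to 3479 in males (1 of 3 called in each direction). Besides the tubercle pair, 1 marker each of muscle, neuron and erythroid cells lay below the filter. The part of these cell types, of 18S and of RNA integrity in the values below was not tested, beyond the fit with 18S as a covariate.

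The sequence around the transcription starts of some of the members described below is shown first. The genes shown were picked by hand, so how many of them hold a motif says nothing about the members as a whole. The stretches run from 75 bases before to 25 bases after the start listed in the RefSeq promoter table, and are written 5′ to 3′ along the gene (RefSeq, GRCm38.p6). Capitals mark 2 motifs searched on both strands: CCGGAAG, a core sequence bound by ETS factors (CTTCCGG where it lies on the opposite strand), and CACGTG, the E-box bound by Myc and related factors. The letters of the motifs do not overlap in any stretch.
Gcn1, chr5:115565188-115565287, plus strand: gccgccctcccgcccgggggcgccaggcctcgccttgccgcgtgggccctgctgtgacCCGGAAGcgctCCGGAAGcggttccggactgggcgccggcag
Eif2b2, chr12:85219406-85219505, plus strand: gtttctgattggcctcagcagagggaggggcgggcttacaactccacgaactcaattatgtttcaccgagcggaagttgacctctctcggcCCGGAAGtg
Eif2b4, chr5:31193115-31193214, minus strand: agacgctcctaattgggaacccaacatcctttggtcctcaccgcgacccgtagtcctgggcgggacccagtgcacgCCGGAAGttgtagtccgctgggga
Eif3c, chr7:126566342-126566441, minus strand: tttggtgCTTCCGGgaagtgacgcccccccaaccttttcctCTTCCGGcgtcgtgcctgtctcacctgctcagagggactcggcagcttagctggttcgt
Eif3d, chr15:77970800-77970899, minus strand: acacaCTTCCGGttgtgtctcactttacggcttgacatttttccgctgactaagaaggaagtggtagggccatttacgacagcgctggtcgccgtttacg
Eif3l, chr15:79075148-79075247, plus strand: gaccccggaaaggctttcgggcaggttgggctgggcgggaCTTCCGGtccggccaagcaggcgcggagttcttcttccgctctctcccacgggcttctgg
Eif3f, chr7:108934340-108934439, plus strand: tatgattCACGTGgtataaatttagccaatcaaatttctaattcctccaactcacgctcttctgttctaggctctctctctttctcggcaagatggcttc
Eif3k, chr7:28981864-28981963, minus strand: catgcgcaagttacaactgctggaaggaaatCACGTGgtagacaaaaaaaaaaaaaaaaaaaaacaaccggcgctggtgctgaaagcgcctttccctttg
Eif4a1, chr11:69672399-69672498, minus strand: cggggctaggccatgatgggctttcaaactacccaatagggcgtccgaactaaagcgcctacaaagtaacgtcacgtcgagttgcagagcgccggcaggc
Eif4a2, chr16:23107393-23107492, plus strand: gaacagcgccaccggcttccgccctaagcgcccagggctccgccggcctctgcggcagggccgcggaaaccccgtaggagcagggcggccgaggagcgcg

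Gcn1, Eif2b2, Eif2b4, Eif3c, Eif3d and Eif3l hold the ETS-type motif in these stretches, and Gcn1 and Eif3c each hold it 2 times. The listed start lies 146 bases inside the outer bound of the annotated gene for Gcn1 and 2 bases inside it for Eif3k, and at that bound for the other genes shown. In Gcn1 the copies cover bases -17 to -11 and -6 to 1 from the listed start. Eif3f and Eif3k hold the E-box, at -68 to -63 and -44 to -39. Eif4a1 and Eif4a2, 2 genes for the same helicase that differed in opposite directions between the sexes, hold neither in the stretch, and Eif4a1 has an E-box farther out, at -189 to -184. RefSeq windows from 250 bases before to 50 after the start were at hand for 46 of the 57 genes, 61 windows in all. The ETS-type motif was in 32.8% of the members' windows, in 16.8% of the 11912 windows of all tested genes and in 8.86% of all 32851 promoter windows. The E-box was in 23.0%, 9.76% and 7.15% of them. By call, the ETS-type motif was in 34.4% of the 32 windows of members called higher in females, in 34.8% of the 23 windows of members tested and not called, and in 1 of the 4 windows of members called higher in males. The E-box was in 28.1%, 21.7% and 0 of 4. Windows of the same gene can overlap, so that a site counts in more than 1 of them. By gene, the ETS-type motif was in 9 of 21 called higher in females and 7 of 19 tested and not called. Over all tested genes with a window it was in 1834 of 9235. The E-box was in 7 of 21, 5 of 19 and 1088 of 9235. A match is a description of letters, not of binding.

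The values below are of 2 kinds, the intensity on each array and the difference, male minus female, of log2(intensity + 16) with the standard error (SE) of a limma fit across all tested probe sets. The added 16 makes the difference understate the change of dim genes. Probe sets were tested where their mean log2 value reached 7.77, an intensity of about 202.67; 123 of the members' 155 probe sets and 55 of the 57 genes passed, and each gene is represented by its brightest tested probe set. The filter mean is over both sexes, so a probe set below that level in males or females can pass through the other sex. Call means a Benjamini-Hochberg adjusted p under 0.05. Eef2kmt, a methyltransferase acting on eEF2, did not reach the filter, with 9.43 ± 1.91 (SD, n = 4) in females and 7.23 ± 0.96 in males. Eif4a3, the helicase of the exon junction complex, did not reach it either, with 11.8 ± 4.86 and 8.22 ± 2.80.

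Of the 55 genes, 26 were called higher in females, 5 were called higher in males and 24 did not pass. The 31 called genes are 56.4% of those tested, beside 42.2% of all 11489 tested genes. Genes higher in females made up 47.3% of the members and 28.2% of all tested genes, and genes higher in males 9.09% and 14.0%. The median difference of the members was -0.26, beside -0.12 over all tested genes, and no test was made of the members as a list. By probe set, 65 of 123 were called (52.8%, beside 40.5% of all tested probe sets), 43 higher in females (35.0%, beside 21.9%) and 22 higher in males (17.9%, beside 18.7%). The ranges of the male and female arrays did not overlap for 27 of 55 genes (49.1%, beside 39.6% of all genes) and for 59 of 123 probe sets (48.0%, beside 37.1%).

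Scaling moved this balance. When each array was centred on its median, the median difference of all tested probe sets went from -0.01 to -0.22, and the members' calls became 1 gene higher in males and 36 higher in females. Over all tested genes, 5502 were called in either direction with that centring and 4854 without it. By probe set the same centring gave 9 higher in males and 59 higher in females, so that 13.2% of the called probe sets were higher in males in place of 33.8%; for all tested probe sets the share went from 46.1% to 23.8%, and for member genes from 16.1% to 2.70%. Of the 5 genes higher in males, Eif4a2 alone passed under median centring (0.51, limma adjusted p = 0.00341). With the 18S level as a covariate, 4 of the 55 member genes passed, Eif3d, Eif2ak4, Eif3b and Eif4a1, all higher in females. Over all 11489 tested genes, 230 passed. By probe set 6 of the 123 of members passed, beside 1.84% of all tested probe sets. Male replicates 1 and 3 were highest in 18S and in the actin 5′ to 3′ ratio, and male replicate 3 also carried Xist signal. Without these 2 arrays 5 genes were called higher in males and 25 higher in females. Calls in the male direction varied when single arrays were left out: there were 7 such genes without male replicate 1, 2 without female replicate 3 or male replicate 4 and 3 without female replicate 1, 2 or 4 or male replicate 2 or 3, and by probe set 13 without female replicate 3 and 14 without male replicate 3. There were 3 such genes without the filter, 3 with the replicate block, 2 without the trend and 8 when each gene's probe sets were averaged.

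**Figure D1:**
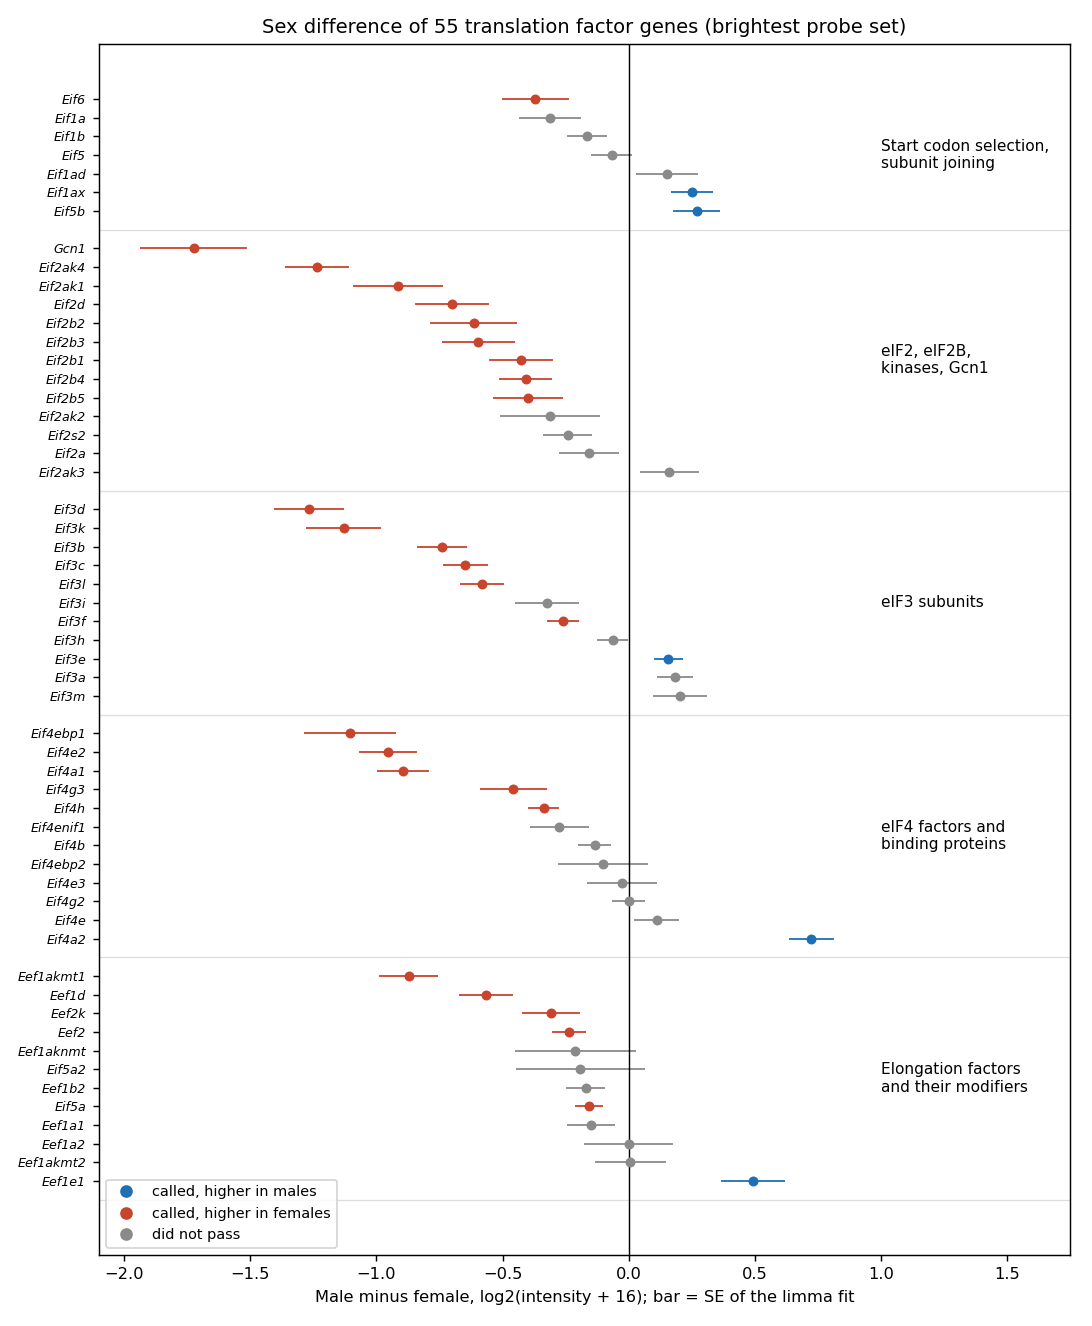
Male minus female difference on the log2(intensity + 16) scale (x axis) of the 55 tested translation factor genes on their brightest probe set, grouped by role; points are fitted differences, bars are SE, and colour gives the call by the limma fit (n = 4 per sex). Gcn1 at -1.72 lies furthest to the left and Eif4a2 at 0.72 furthest to the right.

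The group of eIF2, its exchange factor and its kinases had 9 of 13 genes higher in females, beside 28.2% of all tested genes. It had 0 higher in males, beside 14.0%, and 4 that did not pass, with a median difference of -0.43. The counts were 10 and 0 with quantile normalization and 11 and 0 with median centring. Here and in the groups below, the shares of all tested genes belong to the main fit. Of all called probe sets, 46.1% were higher in males in that fit, 44.4% with quantile normalization and 23.8% with median centring. Counts under median centring therefore cannot be read against the main shares. The 3 largest differences belonged to Gcn1 and to the kinases Eif2ak4 and Eif2ak1, and all 5 subunit genes of eIF2B were higher in females.

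Gcn1 encodes the ribosome-bound protein that activates the kinase GCN2 when amino acids run short. Its brightest probe set read 1984, 1807, 1833 and 1871 on the female arrays and 797, 605, 347 and 569 on the male arrays. Every male array lay below every female array, with the widest gap at male replicate 3, and the difference of -1.72 ± 0.21 (limma adjusted p = 0.000149) was the largest of any member gene on its brightest probe set. The other 4 Gcn1 probe sets did not reach the filter on low values, and on each of them the male mean was above the female mean. The brightest of these read 91.1 ± 32.4 in females and 207 ± 80.2 in males, every male above every female.

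Eif2ak4 encodes GCN2 itself. The female arrays read 4499, 4969, 4644 and 4063 and the male arrays 1866, 2144, 1584 and 2123. The groups stood clearly apart, with a difference of -1.24 ± 0.13 (limma adjusted p = 6.17e-05), and Eif2ak4 passed with 18S as a covariate too (-1.11, limma adjusted p = 0.0399). Gcn1 did not pass there (-1.44, limma adjusted p = 0.0643).

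Eif2ak1, the kinase that answers to low heme, read 1309.8, 1207, 1202 and 1054 in females and 728, 719, 452 and 639 in males. No male array reached the lowest female array, and the difference was -0.91 ± 0.18 (limma adjusted p = 0.00187). A dimmer probe set gave -0.85 ± 0.19 (limma adjusted p = 0.00482), and the third tested probe set, at 375 ± 78.1 in females and 526 ± 205 in males, did not pass.

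The other two kinases did not pass. Eif2ak3 (PERK), which responds to misfolded protein in the endoplasmic reticulum, read 3321, 3384, 3339 and 2573 in females and 3514, 3605, 3582 and 3329.7 in males. The ranges overlapped and the difference was 0.16 ± 0.12 (limma adjusted p = 0.29). Eif2ak2 (PKR), which responds to double-stranded RNA, read 946 to 1352 in females and 678 to 1239 in males (-0.31 ± 0.20, limma adjusted p = 0.226). The dimmer tested Eif2ak2 probe set had the opposite sign: it read 204, 252, 262 and 221 in females and 478, 274, 326 and 277 in males, every male above every female, and did not pass (0.47 ± 0.22, limma adjusted p = 0.107).

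eIF2B is the exchange factor that recharges eIF2, and its 5 subunits are encoded by Eif2b1 to Eif2b5. Eif2b2 differed most among them: it read 6253, 5959, 6744 and 9093 in females and 6074, 3969, 3560.3 and 4831 in males (-0.61 ± 0.17, limma adjusted p = 0.0138). Male replicate 1 lay inside the female range. Its 2 dimmer probe sets had the same sign and did not pass (-0.42 and -0.37).

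Eif2b3 read 3383, 2836, 3200.5 and 3006 in females and 2623, 2150.0, 1758 and 1758 in males, so the groups did not overlap (-0.60 ± 0.14, limma adjusted p = 0.00646). Eif2b4 read 3815, 3534, 4063 and 3669 in females and 3067, 2947, 2675 and 2671 in males, again apart (-0.41 ± 0.11, limma adjusted p = 0.00907). These 2 subunits and Eif2b2 kept their calls whichever array was left out.

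The remaining subunits passed with less room. For Eif2b1 the female arrays read 2659, 2654, 2651 and 2167 and the male arrays 1946, 2111, 1665 and 1798, which put female replicate 4 close to the highest male (-0.43 ± 0.13, limma adjusted p = 0.0186). The Eif2b1 call was lost without female replicate 1, 2 or 3 or male replicate 3 (adjusted p up to 0.0564 in the limma fit). Eif2b5 read 3756, 3998, 3778 and 3851 in females and 3918, 2591, 2654 and 2665 in males, with male replicate 1 inside the female range (-0.40 ± 0.14, limma adjusted p = 0.0352). Its call was lost without any array other than male replicate 1 (adjusted p up to 0.0936 in the limma fit).

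Eif2d, a factor that delivers tRNA to the small subunit outside the eIF2 route, read 4376, 3964, 4386 and 4045 in females and 3157, 2427, 1939.6 and 2944 in males. The groups were apart (-0.70 ± 0.15, limma adjusted p = 0.00297), and a second probe set gave -0.81 ± 0.16 (limma adjusted p = 0.00198). The remaining 2 tested Eif2d probe sets, both dimmer, gave 0.40 and -0.40 and did not pass.

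Eif2s2, the beta subunit of eIF2, had called probe sets in both directions. Its brightest probe set read 23187, 21333, 22197 and 18225 in females and 15176, 19417, 18036 and 19219.6 in males and did not pass (-0.24 ± 0.10, limma adjusted p = 0.0612). Of the other 5 probe sets, 3 were higher in males (0.51 ± 0.10, 0.63 ± 0.20 and 0.82 ± 0.28) and 1 was higher in females (-0.33 ± 0.12, limma adjusted p = 0.0495). The 0.82 probe set had a female mean of 184, below the filter intensity of 202.67, and passed the filter through the male arrays (mean 316). Under median centring the 3 male calls did not pass and the female call did. Only the 0.51 call of Eif2s2 withstood the removal of each single array: 0.82 was lost without any array other than female replicate 2 or male replicate 4, 0.63 without female replicate 1 or 2 or male replicate 3, and -0.33 without female replicate 1, 2 or 3 or male replicate 2 or 4.

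Eif2a, a separate initiation factor that can bring the initiator tRNA to some mRNAs, did not pass on its brightest probe set (-0.16 ± 0.12, limma adjusted p = 0.307). A dimmer Eif2a probe set, of the kind whose probes can cross-hybridize, passed in the male direction (0.41 ± 0.15, limma adjusted p = 0.0456). It lost the call without any array other than female replicate 4 or male replicate 2. The brightest probe sets of Eif2b2, Eif3c, Eif3e, Eif4h and Eif4ebp1 are of that cross-hybridizing kind too.

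**Figure D2:**
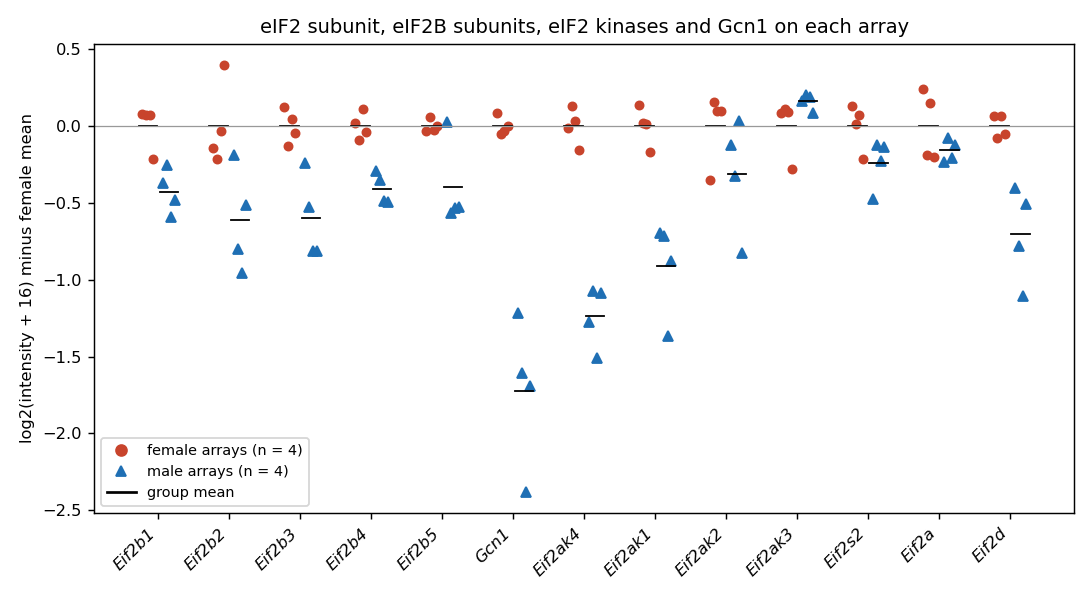
Level of each gene of the eIF2 group on every array as log2(intensity + 16) minus the female mean of that gene (y axis); red circles are the 4 female arrays, blue triangles the 4 male arrays, black lines the group means, each on the brightest probe set. All male points of Gcn1, Eif2ak4 and Eif2ak1 lie below all female points, whereas those of Eif2ak2, Eif2ak3 and Eif2a overlap the females.

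Among the 11 eIF3 subunit genes, with a median difference of -0.32, 6 were higher in females, beside 28.2% of all tested genes. Another 1 was higher in males, beside 14.0%, and 4 did not pass. With median centring, which moved the median of all tested probe sets toward females, the counts were 8 and 0. They were 6 and 2 with quantile normalization. The subunits did not differ as a block: Eif3d, Eif3k, Eif3b, Eif3c, Eif3l and Eif3f were lower in males, while Eif3a, Eif3e, Eif3h, Eif3i and Eif3m were not called lower on their brightest probe sets.

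Eif3d, a subunit that can bind the cap of some mRNAs, read 12032, 10621, 11699.5 and 9699 in females and 6229, 4116, 4023 and 4178 in males. Male replicate 1 was the highest male array and still lay well below the females (-1.27 ± 0.14, limma adjusted p = 8.28e-05). It passed with 18S as a covariate (-1.18, limma adjusted p = 0.0408).

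Eif3k and Eif3l are peripheral subunits that pair with each other in the complex. Eif3k read 6086, 4674, 4973 and 4816 in females and 3034, 2125, 1917 and 2371 in males (-1.13 ± 0.15, limma adjusted p = 0.000209). Eif3l read 17045, 16802, 17564 and 13919 in females and 11228, 11454, 10208 and 10635 in males (-0.58 ± 0.09, limma adjusted p = 0.000418). Both separated the sexes on every array. A much dimmer second Eif3l probe set did not pass (0.16 ± 0.29), and the mean over both probe sets did not pass either (-0.21, limma adjusted p = 0.217).

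Eif3b and Eif3c belong to the core of the complex. Eif3b read 8961, 9357, 9342 and 8879 in females and 6396, 4804, 5581 and 5205 in males (-0.74 ± 0.10, limma adjusted p = 0.000226), and passed with 18S as a covariate. Eif3c read 26407, 22897, 24019 and 20092 in females and 16133, 15045, 13260.0 and 15048 in males (-0.65 ± 0.09, limma adjusted p = 0.000297). The 2 next brightest Eif3c probe sets gave -0.62 each, and the dimmest, at 216 ± 39.9 in females and 345 ± 117 in males, did not pass.

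Eif3f, a regulatory subunit, differed by less: 36656, 34592, 34272 and 30894 in females against 29779.9, 27933, 28762 and 27192 in males (-0.26 ± 0.06, limma adjusted p = 0.00664). The 4 male arrays were still all below the 4 female arrays. Its call did not pass without the mean-variance trend of the fit (limma adjusted p = 0.0608).

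Eif3e was the only eIF3 gene called higher in males. It read 34154, 33233, 34424 and 33290.0 in females and 34988, 36676, 40222 and 38891 in males (0.16 ± 0.06, limma adjusted p = 0.0437), a small difference between arrays that did not overlap. The sign turned with median centring (-0.056, limma adjusted p = 0.655), and the call was lost without any array other than male replicate 1. A second Eif3e probe set passed in the male direction (0.37 ± 0.08, limma adjusted p = 0.00274), though not under median centring (0.16, limma adjusted p = 0.201), and the third did not pass (0.01 ± 0.07).

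Eif3a, the largest subunit, read 17482, 17452, 17433 and 17344 in females and 17779, 19172, 21495 and 20934 in males on its brightest probe set, apart but not past the threshold (0.18 ± 0.07, limma adjusted p = 0.0586). Its dimmer probe sets were called higher in males, at 0.25 ± 0.09, 1.18 ± 0.31 and 1.98 ± 0.44. On the 1.18 and 1.98 probe sets the female means, 194 and 165, lay below the filter intensity of 202.67. Those probe sets passed the filter through the male arrays, with male means of 447 and 743. The 0.25 call was lost under median centring and without female replicate 3 or 4 or male replicate 1, 2 or 3, and the 1.18 call without male replicates 1 and 3 together (0.84, limma adjusted p = 0.095). The 1.98 probe set read 77.7, 228, 116 and 241 in females and 1254, 321, 973 and 424 in males. Male replicates 1 and 3, the arrays highest in 18S and in the actin 5′ to 3′ ratio, stood far above the other males. Without these 2 arrays the difference was 1.21 (limma adjusted p = 0.0439).

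Eif3i, another subunit of the core, read 19849, 17022, 18904 and 23383 in females and 18835, 12342, 15716 and 16648 in males on its brightest probe set (-0.32 ± 0.13, limma adjusted p = 0.0564). Its second probe set was called higher in females (-0.80 ± 0.12, limma adjusted p = 0.000466), at 16631 ± 823 (SD) against 9717 ± 2049. Eif3h and Eif3m, 2 further subunits, did not pass on their brightest probe sets (-0.06 ± 0.06 and 0.20 ± 0.11). A dim Eif3h probe set, at 239 ± 46.5 in females and 413 ± 109 in males, passed in the male direction (0.73 ± 0.23, limma adjusted p = 0.0229), but not under quantile normalization (limma adjusted p = 0.0572) or without female replicate 3 or male replicate 3 or 4.

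**Figure D3:**
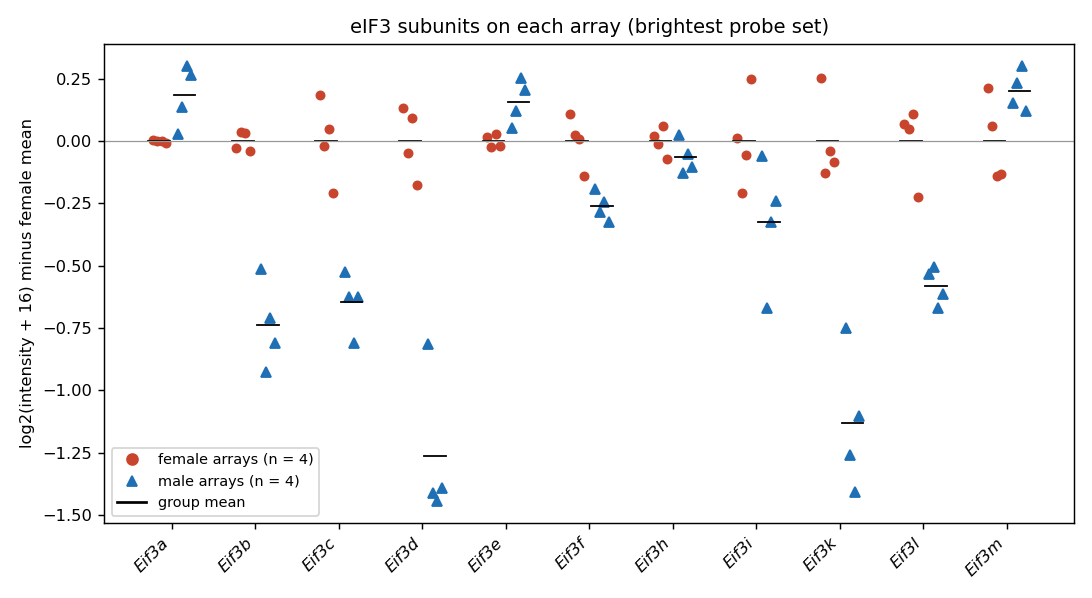
Level of each eIF3 subunit gene on every array as log2(intensity + 16) minus the female mean of that gene (y axis), drawn as in the plot of the eIF2 group on the brightest probe set of each gene. The male points of Eif3d, Eif3k, Eif3b, Eif3c, Eif3l and Eif3f lie below all female points, and those of Eif3a and Eif3e lie above them.

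Of the 12 tested eIF4 genes 5 were higher in females, beside 28.2% of all tested genes. Another 1 was higher in males, beside 14.0%, and 6 did not pass (median difference of the 12 genes -0.21). The calls were 7 and 1 with median centring, which moved the median of all tested probe sets toward females. They were 5 and 1 with quantile normalization. The helicase genes Eif4a1 and Eif4a2 differed in opposite directions.

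Eif4a1 and Eif4a2 encode closely related forms of the helicase that unwinds the mRNA leader. Eif4a1 read 21405, 19985, 20896 and 21048 in females and 13950.0, 10198, 11491 and 9618 in males (-0.89 ± 0.10, limma adjusted p = 0.000112). Its second probe set gave -1.22 ± 0.13 (limma adjusted p = 8.05e-05), at 6729.9 ± 555 in females and 2915 ± 551 in males, and the third did not pass (-0.20 ± 0.24). Both called Eif4a1 probe sets also passed with 18S as a covariate.

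Eif4a2 was the member gene with the largest difference in the male direction on its brightest probe set. The female arrays read 17955, 21949, 19244 and 16564 and the male arrays 27806, 31771, 33235 and 31860.1, so that every male array stood above every female array. The difference was 0.72 ± 0.09 (limma adjusted p = 0.000148) and did not pass with 18S as a covariate (0.58, limma adjusted p = 0.0706).

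Eif4h, which stimulates the helicase, was called higher in females on each of its 4 tested probe sets, at -0.34 ± 0.06, -0.32 ± 0.06, -0.61 ± 0.08 and -0.63 ± 0.15. The brightest read 52008, 50370.0, 49345 and 43091 in females and 37819, 38673, 38555 and 38766 in males, a tight male group below all females. Eif4b, the other helper of the helicase, did not pass on its brightest probe set (-0.14 ± 0.07), while a second passed in the male direction (0.34 ± 0.09, limma adjusted p = 0.0093), but not under median centring (0.13, limma adjusted p = 0.46), and the third did not pass (-0.02 ± 0.24).

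The cap-binding genes differed from each other. Eif4e, the main cap-binding factor, read 16646, 16178, 15587 and 16017 in females and 14310.3, 18069, 19333 and 18254 in males (0.11 ± 0.09, limma adjusted p = 0.35). Male replicate 1 was the lowest of all 8 arrays, and without it Eif4e passed as higher in males (0.20, limma adjusted p = 0.0231); with median centring its sign turned (-0.10). Eif4e3, another cap-binding gene, read 2462 ± 124 (SD, n = 4) in females and 2443 ± 417 in males (limma adjusted p = 0.896).

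Eif4e2, a cap-binding protein that represses translation of bound mRNAs, read 6190.3, 5831, 5876 and 6574 in females and 3777, 3194, 2685 and 3025 in males (-0.95 ± 0.12, limma adjusted p = 0.00014). A second probe set was also higher in females (-0.70 ± 0.12). The third went the other way, at 3134, 3203, 3439 and 3786 in females and 4577, 4766, 5037 and 5234 in males (0.53 ± 0.10, limma adjusted p = 0.00188). All 3 separated the sexes on every array, in opposite directions, and the mean over the tested Eif4e2 probe sets did not pass (-0.19, limma adjusted p = 0.148). Under median centring the male call of Eif4e2 did not pass (0.32, limma adjusted p = 0.0582). The dimmest tested probe set did not pass (0.37 ± 0.15, limma adjusted p = 0.071), though every male stood above every female. The same held on a dimmer one below the filter, at 127 ± 8.88 in females and 174 ± 14.7 in males. The sequences these probe sets read were not analysed here.

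The repressor Eif4ebp1, whose product binds eIF4E when mTOR is inactive, read 1604, 1281, 1256 and 1775 in females and 841, 661, 711 and 514 in males (-1.11 ± 0.18, limma adjusted p = 0.000754). A second probe set gave -1.21 ± 0.19, and the third, at 501 ± 47.5 in females and 554 ± 62.8 in males, did not pass. Eif4ebp2, the related repressor, read 1479 ± 192 in females and 1396 ± 325 in males on its brightest probe set (-0.10 ± 0.18), and 199.8, 279, 194 and 239 against 767, 438, 523 and 433 on a dim one (1.16 ± 0.23, limma adjusted p = 0.00189).

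Eif4g3 encodes a form of the eIF4G scaffold. It read 6000.5, 6230.5, 5941 and 6690.0 in females and 6044, 4264, 4175 and 3872 in males (-0.46 ± 0.13, limma adjusted p = 0.016), with male replicate 1 inside the female range. Averaged over its tested probe sets, the sign turned and the gene did not pass (0.076, limma adjusted p = 0.698). Eif4g2, a scaffold relative that does not bind eIF4E, had means of 43266 ± 1713 in females and 43351 ± 4062 in males (limma adjusted p = 0.993); a second of its probe sets was higher in females (-0.30 ± 0.09, limma adjusted p = 0.0211) and lost the call without female replicate 1 or 2. Eif4enif1, which carries eIF4E into the nucleus, read 3348 ± 188 in females and 2777 ± 328 in males and did not pass (-0.27 ± 0.12, limma adjusted p = 0.0818).

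Elongation factors and their modifiers had 5 of 12 tested genes higher in females, beside 28.2% of all tested genes. They had 1 higher in males, beside 14.0%, and 6 that did not pass, with a median difference of -0.18. The counts were 3 and 1 with quantile normalization. They were 7 and 0 with median centring, which moved the median of all tested probe sets toward females.

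Eef1a1, the main tRNA-delivering factor and one of the most abundant mRNAs of growing cells, read 49734, 47865, 48427 and 38094 in females and 37780.3, 41597, 48042 and 38305 in males. The ranges overlapped, with female replicate 4 down at the level of the lower males (-0.15 ± 0.09, limma adjusted p = 0.219). Without female replicate 4 it passed as higher in females (-0.24, limma adjusted p = 0.0305), and it also passed with median centring (-0.36, limma adjusted p = 0.0213).

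Eef1a2, the form of mature muscle and neurons, had the same mean in both sexes, 552 ± 81.1 (SD, n = 4) in females and 552 ± 79.3 in males. The arrays read 543, 544, 463 and 660.1 and 551, 469, 659 and 529 (limma adjusted p = 0.998). Skeletal muscle and neuron marker sums were higher on every male array, as given above, and Eef1a2 was not called with them. Whether Eef1a2 follows muscle and neuron cells at this embryonic stage was not tested.

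Eef1b2 and Eef1d encode subunits of the eEF1B exchange factor. Eef1d read 11215, 11836, 11239.8 and 11753 in females and 9669.8, 7303, 7788 and 6616 in males, apart on every array (-0.57 ± 0.11, limma adjusted p = 0.0017), while its 2 dimmer probe sets did not pass. Eef1b2 did not pass (-0.17 ± 0.08, limma adjusted p = 0.0943).

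Eef1e1, despite its name, encodes a scaffold of the aminoacyl-tRNA synthetase complex. It read 7829, 6152, 5637 and 6542 in females and 7304, 9923, 10031 and 9568 in males (0.49 ± 0.13, limma adjusted p = 0.00911). Male replicate 1 lay inside the female range and the other males stood above it. Under median centring it did not pass (0.28, limma adjusted p = 0.165).

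Eef1akmt1, a methyltransferase that modifies eEF1A, had the largest difference of the elongation group. It read 6477, 5831, 5454 and 6470.1 in females and 3716, 3584, 2759.6 and 3206 in males (-0.87 ± 0.12, limma adjusted p = 0.000247), and its 2 other tested probe sets were called higher in females too (-0.61 ± 0.20 and -0.43 ± 0.16). The -0.61 call was lost without female replicate 1, 3 or 4 or male replicate 2 or 3, and the -0.43 call without female replicate 1, 2 or 4 or male replicate 1, 2 or 3 (adjusted p up to 0.117 in the limma fit). Eef1akmt2 and Eef1aknmt, 2 more enzymes that methylate eEF1A, did not pass (0.01 ± 0.14 and -0.21 ± 0.24).

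Eef2, the translocation factor, read 28038, 27998, 31048 and 26725 in females and 26318, 22954, 24057 and 23193 in males (-0.24 ± 0.07, limma adjusted p = 0.0153). The groups were apart by a small margin, and the call was lost without female replicate 3 (limma adjusted p = 0.0603).

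Eef2k, the kinase that inactivates eEF2, had called probe sets in both directions. The brightest read 8191, 8433, 8379.8 and 7741 in females and 8162, 6976, 5594 and 5975 in males (-0.31 ± 0.12, limma adjusted p = 0.049). A second gave -0.51 ± 0.18 (limma adjusted p = 0.0364), and the dimmest, at 171 ± 43.2 in females and 354 ± 133 in males, gave 0.94 ± 0.29 (limma adjusted p = 0.022). The female mean of the dimmest lay below the filter intensity of 202.67, so it passed the filter through the male arrays. Male replicate 1 lay inside the female range on the brightest probe set, whose call was lost without any array other than that one (adjusted p up to 0.137 in the limma fit), and the mean over the 3 had the opposite sign (0.040, limma adjusted p = 0.845). The -0.51 call was lost without female replicate 1, 2 or 3 or male replicate 3 or 4, and the 0.94 call without female replicate 3 or male replicate 1 or 3.

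Eif5a, which helps the ribosome through difficult peptide bonds and carries the modified lysine hypusine, read 31771, 29843, 31885 and 32572 in females and 28925, 27082, 28028 and 28951 in males. The groups were apart by a small step (-0.16 ± 0.06, limma adjusted p = 0.0376). The call was lost under quantile normalization (limma adjusted p = 0.114) and without any array other than female replicate 2 or male replicate 1. Eif5a2, its second gene, overlapped between the sexes at 1791 ± 228 (SD) and 1664 ± 642.

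The factors of start codon selection and subunit joining had 2 of 7 genes higher in males, beside 14.0% of all tested genes. They had 1 higher in females, beside 28.2%, and 4 that did not pass, with a median difference of -0.07. With median centring, which moved the median of all tested probe sets toward females, 3 were called higher in females and 0 in males. With quantile normalization the counts were 0 and 2.

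Eif5b, the GTPase that joins the ribosomal subunits, read 5024, 4559, 4852 and 4774 in females and 5376, 6349, 5482 and 5993 in males (0.27 ± 0.09, limma adjusted p = 0.0372). A dim second probe set read 406, 513, 455 and 459 against 1024, 930.2, 862 and 927 (1.01 ± 0.15, limma adjusted p = 0.00046), and both put every male above every female. Under median centring the brightest Eif5b probe set did not pass (0.057, limma adjusted p = 0.76) and the second did (0.79, limma adjusted p = 0.0017). Leaving out any array other than male replicate 1 or 3 ended the call of the brightest.

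Eif1ax, the X-linked gene for eIF1A, read 16729, 17558, 17270.1 and 19590.1 in females and 18873, 20256, 22389.6 and 23285 in males, with male replicate 1 inside the female range (0.25 ± 0.08, limma adjusted p = 0.0277). It did not pass under median centring (0.038, limma adjusted p = 0.799), nor without female replicate 1, 2 or 3 or male replicate 3 or 4, and its 2 dimmer probe sets did not pass (0.19 ± 0.10 and 0.10 ± 0.13). Eif1a, the autosomal gene for the same factor, read 8342 ± 1387 (SD, n = 4) in females and 6663 ± 619 in males (-0.31 ± 0.12, limma adjusted p = 0.0601). A second Eif1a probe set, at 6240 ± 457 in females and 6400 ± 342 in males, did not pass either (0.04 ± 0.09, limma adjusted p = 0.765). Eif1b, a form of the start codon gatekeeper eIF1, did not pass (-0.17 ± 0.08).

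Eif5 encodes the protein that triggers GTP hydrolysis by eIF2 at the start codon. Its brightest probe set did not pass, at 34783 ± 4032 (SD, n = 4) in females and 33032 ± 1715 in males (limma adjusted p = 0.53). The next 3 were called higher in males, at 0.74 ± 0.15, 0.95 ± 0.12 and 0.78 ± 0.23. The second of these read 9456, 9583, 8746 and 7198 in females and 13314, 19131, 16825 and 18363 in males, all males above all females, and was the only member probe set called higher in males with 18S as a covariate (1.10, limma adjusted p = 0.0337). In the other 2, male replicates 1 and 3 stood above the remaining males, as 19766 and 22008 against 12638 and 13364 in the brighter one. The 0.78 call was lost without female replicate 3 or male replicate 3, and without male replicates 1 and 3 together the difference was 0.34 (limma adjusted p = 0.124).

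Eif6, which keeps the large ribosomal subunit from joining too early, read 2618, 2549, 2448 and 2442 in females and 2396, 1977, 1658 and 1803 in males (-0.37 ± 0.13, limma adjusted p = 0.0409). The highest male lay just under the lowest female. The Eif6 call was lost without any array other than male replicate 1 (adjusted p up to 0.108 in the limma fit) and did not pass under quantile normalization (limma adjusted p = 0.0509). Eif1ad, a protein with an eIF1A-like domain, did not pass on its brightest probe set (0.15 ± 0.12) and was called higher in females on its second (-0.73 ± 0.17, limma adjusted p = 0.00457).

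Whether related factors differed from each other between the sexes was asked through the ratio of 2 genes within each array, which a scaling factor shared by the array leaves nearly unchanged. A total of 11 such pairs were compared by a two-sided exact permutation test over the 70 arrangements of the arrays, whose smallest possible p is 0.0286; the pairs were set after the values had been seen, so the tests are descriptions of these arrays. The largest change was that of Eif4a2 over Eif4a1, whose log2 ratio was 1.62 higher in males (exact permutation p = 0.0286, Benjamini-Hochberg adjusted 0.0629). Eif2ak3 over Eif2ak4 was 1.40 higher, Eif4e over Eif4e2 1.06 higher and Eif4ebp2 over Eif4ebp1 1.00 higher, each at the same p. In these 4 pairs every male array stood above every female array, also as plain ratios of intensities. Eif4e over Eif4e2 rests on the brightest Eif4e2 probe set. Another Eif4e2 probe set, nearly as bright, was called higher in males (0.53 ± 0.10), and the ratio was not taken on it. Eif2ak2 over Eif2ak4 was 0.92 higher at the same p, but it separated the sexes only with 16 or 64 added: the plain ratios ran from 0.210 to 0.320 in females and from 0.319 to 0.782 in males and overlapped, and with a pseudocount of 1 the exact permutation p was 0.0571. Thus 5 of the 11 pairs had ranges apart with the added 16 and 4 without it. Ratios of other gene pairs were not taken, so no share over all pairs can be set beside these counts. For single genes the ranges did not overlap for 39.6% of all tested genes. No pair passed after adjustment (0.0629 or higher). With 4 arrays per sex and 11 pairs, 5 pairs at the smallest p cannot pass. The heme kinase against GCN2 (Eif2ak1 over Eif2ak4, 0.32) and Eif1ax over Eif1a (0.56) overlapped (exact permutation p = 0.0571 each). With a pseudocount of 64 Eif2ak1 over Eif2ak4 stood apart (exact permutation p = 0.0286). Eif1ax over Eif1a rests on the brighter Eif1a probe set. The dimmer one differed by 0.04 ± 0.09, and the ratio was not taken on it. Eif4g2 over Eif4g3 (0.46, exact permutation p = 0.114), Eif4e over Eif4e3 (0.14, exact permutation p = 0.6), Eef1a2 over Eef1a1 (0.15, exact permutation p = 0.486) and Eif5a2 over Eif5a (-0.03, exact permutation p = 0.886) overlapped between the sexes as well.

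**Figure D4:**
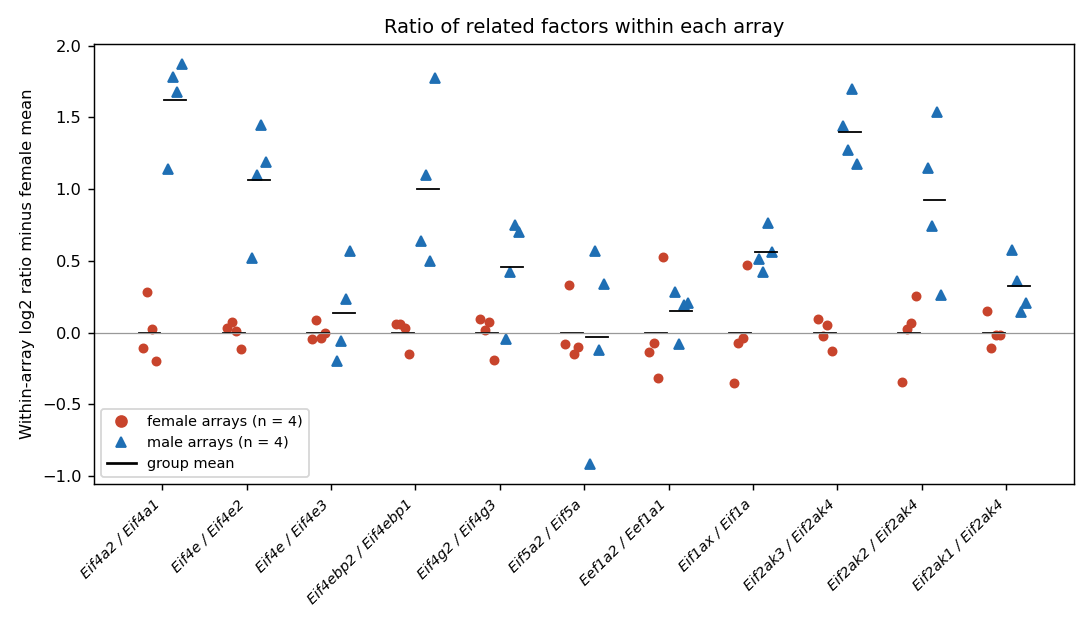
Log2 ratio of 2 related factors within each array, minus the female mean of that ratio (y axis), for 11 pairs on the brightest probe sets; red circles are the 4 female arrays, blue triangles the 4 male arrays and black lines the group means. Eif4a2 over Eif4a1 stands 1.62 higher in males with no overlap, while Eif5a2 over Eif5a and Eif4e over Eif4e3 overlap.

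The direction of the calls differed with the brightness of the probe set. Of the 83 tested member probe sets above the median intensity of all tested probe sets (1235.67), 44.6% were called higher in females and 16.9% higher in males; over all tested probe sets of that brightness the shares were 29.2% and 20.8%. Of the 40 dimmer ones, 15% were called higher in females and 20% higher in males, beside 14.5% and 16.6%. The male calls among them include Eif3a, Eef2k and Eif2s2 probe sets whose female means lay below the filter intensity. Among 14 member genes with 2 or more called probe sets, 3 were called in both directions, Eif2s2, Eif4e2 and Eef2k (21.4%, beside 24.5% of 1512 such genes over the arrays). For Eef2k the male call was on a probe set with a female mean below the filter intensity. Of the 17 tested member probe sets whose names end in x_at, which marks probes open to cross-hybridization, 17.6% were called higher in males and 41.2% higher in females, beside 12.3% and 29.5% of all 1530 such probe sets tested. Of the 6 ending in s_at, whose probes can read several transcripts, 0 and 3 were called, beside 16.6% and 29.0% of all 1508. Those 6 include the brightest probe sets of Eif5a, Eef2k, Eif1a, Eif3m and Eif4g2.

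**Figure D5:**
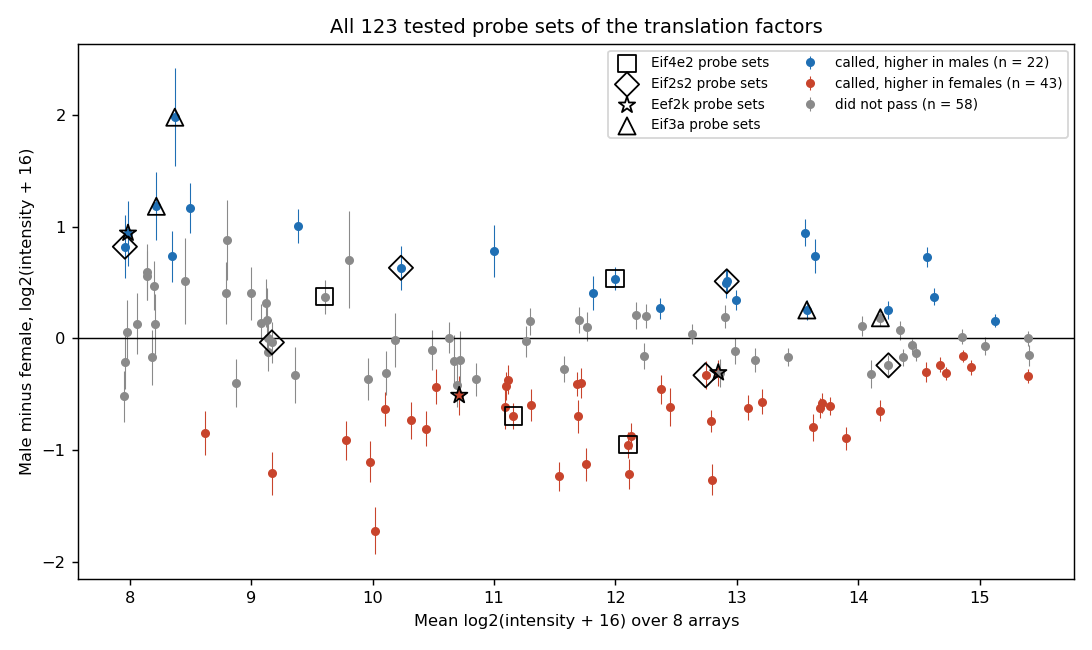
Male minus female difference on the log2(intensity + 16) scale (y axis, bars are SE) against the mean log2(intensity + 16) over all 8 arrays (x axis) for the 123 tested probe sets of the translation factors, coloured by call. The probe sets of Eif4e2, Eif2s2, Eef2k and Eif3a are outlined, and the dimmest probe sets of Eif3a and Eef2k lie above 0 while the brighter ones of Eef2k lie below it.

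A list of 46 genes that act with these factors was examined next; 41 were tested, and 25 passed (61.0%, beside 42.2% of all tested genes), 21 higher in females and 4 higher in males, with a median difference of -0.22. Abcf1, an ATP-binding protein that works with eIF2 on the ribosome, had the largest difference: 9938, 10174, 9525 and 9354 in females against 6424, 4484, 4202 and 4993 in males (-0.97 ± 0.12, limma adjusted p = 0.000168). Rptor, the substrate-binding subunit of mTOR complex 1, followed with 3098, 2631, 2422 and 2350.3 against 1711, 1180.1, 1475 and 1318 (-0.88 ± 0.15, limma adjusted p = 0.000804). Both separated the sexes on every array. The 4 genes called higher in males were Etf1, the release factor that reads stop codons (0.48 ± 0.09, limma adjusted p = 0.00165), Larp1, which binds the mRNAs of ribosomal proteins (0.42 ± 0.09, limma adjusted p = 0.00289), Ppp1r15b, which directs the phosphatase of eIF2 (0.29), and Bzw1 (0.26).

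Within that list the partners of the members with the largest differences can be set beside them. Mtor and Impact, the latter an inhibitor of the step at which Gcn1 activates GCN2, were called higher in females (-0.46 ± 0.10 and -0.53 ± 0.11). Mknk2, a kinase of eIF4E, was called higher in females (-0.84 ± 0.09, limma adjusted p = 8.59e-05), and Mknk1 did not pass (0.44 ± 0.17). Dhps and Dohh, the enzymes that make hypusine on eIF5A, were both called higher in females (-0.75 ± 0.12 and -0.79 ± 0.21). Of the genes read out when eIF2 is phosphorylated, Asns (-0.34 ± 0.10), Ddit3 (-0.66 ± 0.21) and Ppp1r15a (-0.79 ± 0.25, limma adjusted p = 0.0246) were called higher in females, while Atf4 (0.11 ± 0.13) and Chac1 (0.28 ± 0.23) did not pass.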

How the data were processed

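Total RNA of 4 male and 4 female genital tubercle samples was amplified in 2 rounds and hybridized to 1 Affymetrix MOE430 array each, per the labels' protocols. The authors deposited 1 linear intensity per probe set and array, made with GCOS per the submitters' processing notes (version not given in the sources used here). Per the values, the deposited intensity columns share a 2%-trimmed mean of 1500.01 and were not normalized again. Of 45101 probe sets, 64 were controls, 34945 were annotated to 1 gene, 932 to several and 9160 to none; 8 probe sets of matching symbols but several genes were left out. All 57 genes matched the RefSeq table (GRCm38.p6), and 0 symbols were updated.

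Values were taken as log2(intensity + 16), filtered at the median of the mean log2 values (7.77), which left 22519 probe sets, and fitted with limma 3.58.1 in R 4.3.3 (lmFit, eBayes with trend, sex as the only term, Benjamini-Hochberg over all tested probe sets, threshold 0.05). At an unadjusted p under 0.05, 11190 probe sets passed. The number of arrays limits the precision. Among 28 pairs of arrays 0 held identical values. The fitting script was tested on simulated data.

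The members, roles, gene lists and alternatives were chosen with earlier results of these data known. The naming rule took, per role, up to 3 called genes in either direction, ranked by size, members called in both directions and a fixed set, with the 2 other pathway genes largest in each direction; the remaining members and pathway genes were added after their values were seen, and some genes of the fixed set were not analysed here. The ratios of related factors, the motif search, and for those ratios and the pathway list further settings were added after seeing the data. Alternatives were quantile normalization, median centring, pseudocounts 1 and 64, other filters, no trend, the replicate block, 18S as a covariate, the mean of a gene's probe sets and leaving out arrays.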

Additional observations from a re-analysis of the deposited data

Results flagged for a closer look

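A single array stood far from the other 3 of its sex for 10 of the 178 groups of 4 arrays examined (each sex, on every member probe set that was the brightest of its gene or was called), by Dixon's test of the gap to the nearest array; chance alone marks about 1 group in 20. In females, replicate 4 was low for Eef1a1 (38094, the others 47865 to 49734), Eif2ak3 (2573, the others 3321 to 3384) and Eif2b1 (2167, the others 2651 to 2659), and replicate 1 was low for Eif2ak2 (946, the others 1301 to 1352). In males, replicate 1 was high for Eif2b5 (3918, the others 2591 to 2665) and Eif3d (6229, the others 4023 to 4178) and low for Eef1e1 (7304, the others 9568 to 10031). Male replicate 2 was low on the second probe set of Eif2a (3669.9, the others 4258 to 4319), male replicate 3 was low for Eif4enif1 (2289.8, the others 2881 to 2999.8) and male replicate 4 was high for Eif1b (11425, the others 9922 to 10162).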

How the results depend on the processing

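The 18S control as a covariate changed the counts most: it left 6 member probe sets, 4 member genes, 2 other pathway genes, 414 probe sets and 230 genes over the whole table. Its level was higher on every male array than on any female array, so its part and that of sex cannot be told apart well with these arrays; the cause was not tested. A filter at the upper quartile, which tests fewer probe sets, left 5890 probe sets called over the table. Signs turned for Eif3e (-0.056) and Eif4e (-0.10) under median centring, for Eif4g3 (0.076) and Eef2k (0.040) when a gene's probe sets were averaged, and for Eef1a2, whose difference was near 0, when arrays were left out (from -0.087 without male replicate 3 to 0.086 without female replicate 4). Pseudocounts of 1 and 64 kept all 65 member calls, quantile normalization 58, median centring 52, no filter 49 and no trend 52; leaving out 1 array kept between 47 and 60. Deviations of same-numbered male and female samples from the means of their sex correlated at -0.13, -0.08, 0.04 and -0.03. No pairing by number was seen, which does not exclude shared litters or shared processing. With the replicate block 63 member probe sets and 29 member genes were called, against 65 and 31 without it. Of these genes, 3 in place of 5 were higher in males.

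With 4 arrays per sex every difference is imprecise, and the differences of dim probe sets near the filter are understated.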
